A study of Ulva lactuca with 4 samples.

Results

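The 316 contigs described here had a strongly reduced read count in Ulva lactuca thalli desiccated for 24 h and lay within 2-fold of the submerged control in the libraries of 36 h and 72 h. They are 316 of the 105451 contigs of a de novo transcriptome assembly. A contig was included when it had a scaled count of at least 100 in the control, a ratio to the control of at most 0.25 at 24 h, and ratios between 0.5 and 2 at both 36 h and 72 h. A scaled count is the number of reads divided by a size factor of its library, and a ratio is that of (scaled count + 1) in both libraries. All 4 libraries therefore took part in the choice, and the levels of these contigs are given as a description, with no test.

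Ulva lactuca is a green seaweed with a thin, leaf-like thallus that lives between the tide marks. RNA was sequenced from thalli under 4 conditions, 1 library each: thalli that stayed submerged throughout (the control) and thalli desiccated for 24 h, 36 h or 72 h at 20% moisture. No genotype, strain or age is given by the labels, which also do not say how many thalli went into a library or at which hour the control was taken. There were thus no replicates, so that differences compare single libraries, and intervals cover counting error only.

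Seaweeds of the shore lose much of the water of their cells at low tide and take it up again when the tide returns. Desiccation slows photosynthesis and is known to raise the load of reactive oxygen species, and algae and land plants that survive it are known to rely on antioxidant enzymes, protective proteins and compatible solutes. The level of a transcript reflects both how fast it is made and how fast it decays. The tables pair the contigs with no gene names or sequences, so no contig could be given a function, and the tissue could not be checked against marker genes. In RNA from whole thalli, fewer cells of a type and less RNA per cell cannot be told apart.

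The libraries held 52643595 to 74243310 counted reads, and 81547 to 98649 contigs had at least 1 read in a library. The dipping contigs took 1.22% of the reads of the control and 0.178% of those of the 24 h library, then 0.900% in the 36 h library and 0.933% in the 72 h library. Their scaled counts, summed, stood at 0.162 of the control at 24 h, 0.770 at 36 h and 0.771 at 72 h. These sums follow from the rule and add no evidence for the pattern.

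At 24 h, 2756 of the 33347 contigs that met the control minimum were at or under 0.25 of the control, or 8.26%. The dipping contigs are those among the 2756 that lay within 2-fold of the control at both later times, and they make up 11.5% of them. In the control their median scaled count was 1207, and it was 156 in the 24 h library, 1096 in the 36 h library and 998 in the 72 h library. The median ratio at 24 h was 0.164 for the dipping contigs and 0.914 over all 33347 contigs. The depth of the dip ran from just inside the limit down to a contig with no read at all at 24 h. The ratio was at least 16-fold below the control in 33 contigs, between 8-fold and 16-fold below it in 63, and between 4-fold and 8-fold below it in 220. Counting error alone left 244 contigs (77.2%) with an upper 95% bound of the ratio below 0.25. Reads at 24 h were fewer than 50 in 52 contigs and at most 3 in 2 contigs.

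**Figure D1:**
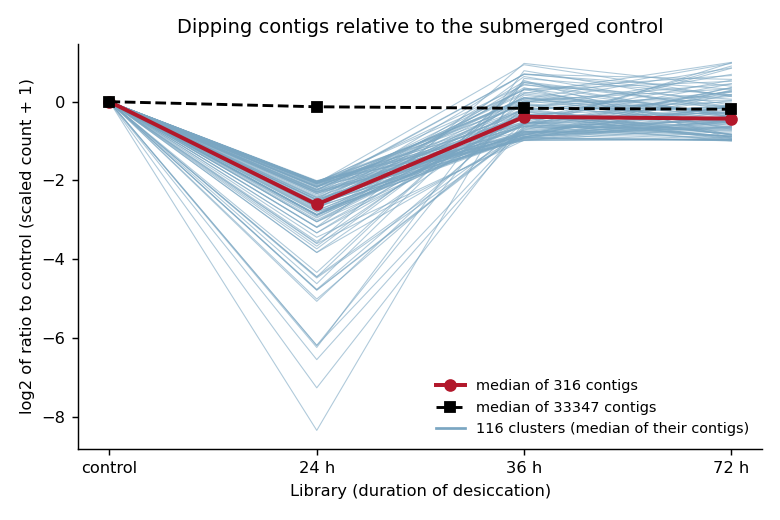
Log2 ratio to the control on the vertical axis, by library on the horizontal axis; each thin line is 1 of 116 assembly clusters (median of its dipping contigs), the thick line the median of the 316 contigs and the dashed line the median of all 33347 contigs with the control minimum. The ratio behind the thick line is 0.164 at 24 h, 0.766 at 36 h and 0.742 at 72 h, while that behind the dashed line stays at 0.914, 0.890 and 0.875.

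Within the window set by the rule, the median ratio lay below 1 at both later times. At 36 h the median ratio to the control was 0.766, with a range of 0.503 to 1.98, and at 72 h it was 0.742, with a range of 0.501 to 1.996. The medians over all 33347 contigs were 0.890 at 36 h and 0.875 at 72 h. Both later ratios were below 1 in 201 of the 316 (63.6%), against 46.9% of all 33347. A further 23 (7.28%) were above the control at both, against 32.4% of all. The other contigs were above the control at 36 h alone (52) or at 72 h alone (40). Within 1.25-fold of the control at both later times were 26 contigs (8.23%), and 60 (19.0%) were under 0.67 of it at both. By the rule all 316 lay in the 2-fold window, and a small share of them lay close to the level of the control at both times. These shares describe the choice and are no test of it, and the 33347 were not held to the window. The control library is the denominator of all 3 ratios, and an inaccurate count in it would shift each of them alike.

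The median level at 36 h did not follow the depth of the dip in 1 order, and at 72 h the medians lay close together. At 36 h the median ratio to the control was 0.781 for the 33 contigs at least 16-fold lower at 24 h, 0.880 for the 63 between 8-fold and 16-fold, and 0.692 for the 220 between 4-fold and 8-fold. At 72 h these medians were 0.716, 0.726 and 0.749. The differences between these groups were not tested. The 33 deepest dips came from 17 clusters, and their median scaled count in the control was 1043, against 978 for the 63 and 1426 for the 220.

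Between the desiccated libraries the control plays no part in the ratio, though the rule itself sets a rise of about 2-fold or more after 24 h. The 36 h count was a median of 4.76 times the 24 h count, and the 72 h count 4.90 times. Over all 33347 contigs these medians were 0.976 and 0.992. At 24 h, 202 dipping contigs (63.9%) were at or under 0.25 of their 36 h count. The share was 3.89% over all contigs with at least 100 scaled counts at 36 h. For the 72 h count they numbered 204 (64.6%), against 12.3% of all contigs with that minimum at 72 h, and 157 met both. The dipping contigs met their minimum in the control instead, so the sets compared were filtered differently. The rule also raises these medians and shares above those of all contigs, so the comparisons do not test the dip. The median ratio of 72 h over 36 h was 0.938 for the dipping contigs and 0.943 over all 33347. Within 1.5-fold between these times were 205 dipping contigs (64.9%), a share near the 62.6% of all 33347, and the window at both times limits this ratio. At least 2-fold higher at 72 h than at 36 h were 21 contigs, and 6 were at least 2-fold lower.

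The contigs singled out by the counting interval of a ratio show how far single counts fell. For these the ratios have nothing added, and 95% intervals are in parentheses. The contig c16778_g1_i1, alone in its cluster, had no read at 24 h against 286 in the control, and it had 558 at 36 h and 324 at 72 h. With 3 counts in place of the 0, it was at least 121-fold lower at 24 h than in the control and at least 183-fold higher at 36 h than at 24 h. Neither limit allows for error in the larger count, and the exact 95% intervals of these ratios begin at 98.0-fold and 148-fold. The contig was thus unread in the library with the most counted reads, though not the largest size factor, and present in the others.

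The contig c14469_g1_i2 had 858 reads in the control, 6 at 24 h, 772 at 36 h and 604 at 72 h. It was 182-fold lower at 24 h than in the control (83.3 to 497) and stood at 0.695 of the control at 36 h and 0.700 at 72 h, nearly level between both. Its cluster partner c14469_g1_i1 was too low for the control minimum and was also lowest at 24 h, with 51, 0, 83 and 38 reads from the control to 72 h.

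The contig c25394_g1_i3 is one of 4 contigs of its cluster, all of them dipping. It had 4269 reads in the control, 66 at 24 h, 9701 at 36 h and 4077 at 72 h. The level at 24 h was 82.3-fold below the control (64.6 to 107), and at 36 h it was 144-fold above 24 h (113 to 187). At 36 h it exceeded the control 1.75-fold (1.69 to 1.82), and at 72 h it was at 0.949 of it (0.909 to 0.991). Over the 4 contigs of this cluster, control reads ranged from 3320 to 4269 and reads at 24 h from 58 to 66.

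In c24674_g1_i1 the count went on rising after 36 h. It had 302 reads in the control, 3 at 24 h, 245 at 36 h and 604 at 72 h. The 72 h level was 255-fold above 24 h (86.7 to 1238) and 3.17-fold above 36 h (2.73 to 3.70), which put it at 1.99 of the control, close to the upper limit of the window. With 1 added to each scaled count, its partners c24674_g1_i3 and c24674_g1_i4 had ratios to the control of 0.0121 each at 24 h. On that measure c24674_g1_i1 was at 0.0107. At 72 h the partners had ratios of 2.14 and 2.29. Both partners thus dipped to a like extent at 24 h and lay outside the window later.

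The reverse order was seen in c23652_g2_i1, alone in its cluster, with 241 reads in the control, 13 at 24 h, 454 at 36 h and 127 at 72 h. It was 23.6-fold lower at 24 h than in the control (13.5 to 45.0), and the 72 h level was 0.360 of that at 36 h (0.293 to 0.439). This contig passed the control at 36 h and was near the lower limit of the window at 72 h, with a ratio of 0.524. The dipping contigs c23652_g1_i1 and c23652_g1_i3 share its c number and stood at 1.38 and 1.42 of the control at 36 h. At 72 h they stood at 0.921 and 0.884, so their fall after 36 h was smaller.

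The pair of dipping contigs with most control reads belongs to 1 cluster. The contig c23890_g1_i7 had 16756 reads in the control, 4249 at 24 h, 12404 at 36 h and 15749 at 72 h, and c23890_g1_i6 had 16584, 4330, 11851 and 15569. They were 5.02-fold (4.85 to 5.19) and 4.87-fold (4.71 to 5.04) lower at 24 h than in the control. At 36 h they stood at 0.572 and 0.552 of the control and at 72 h at 0.934 and 0.933, so that their return was stepwise. All 7 contigs of this cluster were dipping contigs. The 10 dipping contigs with most control reads lay in 3 clusters and held 18.4% of the control reads of the 316. Among these 10 the depth varied. Named after its values were seen, c19823_g1_i1 had 354 reads at 24 h against 8162 in the control, a ratio of 0.0342 with 1 added.

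**Figure D2:**
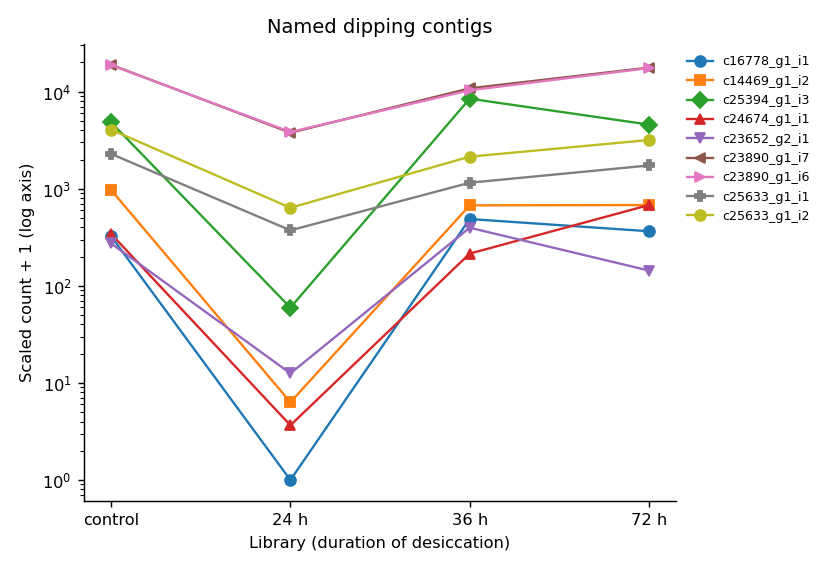
Scaled count + 1 on a log axis for the 9 named dipping contigs, by library. Each line falls at 24 h, from c16778_g1_i1 with 0 reads there to c23890_g1_i6 with 4330, and c24674_g1_i1 and c23652_g2_i1 part between 36 h and 72 h.

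An assembly cluster comprises the contigs that share their c and g number, and it can stand for 1 gene in several forms. The 316 contigs lay in 116 clusters. These clusters came from 110 c numbers, of which 5 had dipping contigs in 2 or more clusters. In 47 clusters 1 contig was dipping, in 69 clusters 2 or more were, and 20 contigs (6.33%) were the only contig of their cluster, against 7.85% of all 33347 contigs and 17.6% of the 2756 contigs low at 24 h. Taken as 1 value per cluster, the medians were 0.165 of the control at 24 h, 0.745 at 36 h and 0.769 at 72 h. Below the control at both later times were 65 of the 116 clusters, and 12 were above it at both. The 72 h level was above that of 36 h in 56 clusters. Such counts were not made over all clusters, and nothing is read from them.

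Dipping contigs of a cluster mostly had similar ratios at 24 h, which the rule already held at or under 0.25. The cluster c25633_g1, the first by identifier of the 5 with 8 dipping contigs, had 1652 to 3714 reads in the control, 313 to 728 at 24 h, 1170 to 2523 at 36 h and 1328 to 2897 at 72 h. Its ratios at 24 h spanned only 0.149 to 0.177. For c25633_g1_i1 the reads were 2021 in the control, 419 at 24 h, 1321 at 36 h and 1546 at 72 h, and for c25633_g1_i2 they were 3594, 716, 2452 and 2828. In 61 of the 69 clusters with several dipping contigs the 24 h ratios lay within 0.5 of each other on the log2 scale, and in 3 they were more than 1 apart. In 20 of the 69 the control counts of all dipping contigs were within 10% of each other. Whether a read that matches several contigs was counted once or for each of them is not stated by the labels. Contigs of a cluster may therefore share reads and are not independent observations.

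The cluster with the widest spread, chosen after its values were seen, was c26207_g1. Its contig c26207_g1_i4 had 6 reads at 24 h against 384 in the control, a ratio of 0.0145, and 726 reads at 36 h and 266 at 72 h. The other 4 dipping contigs of the cluster had 322 to 327 reads at 24 h against 1138 to 1265 in the control, with ratios of 0.203 to 0.223. The rule set the direction for these contigs, while their depths differed widely. Outside the set, c26207_g1_i3, c26207_g1_i6 and c26207_g1_i7 had 309, 313 and 316 reads at 24 h against 552, 633 and 739 in the control. For c26207_g1_i5 there was 1 read against 49. As contigs of a cluster may share reads, these are not independent measures of the depth.

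**Figure D3:**
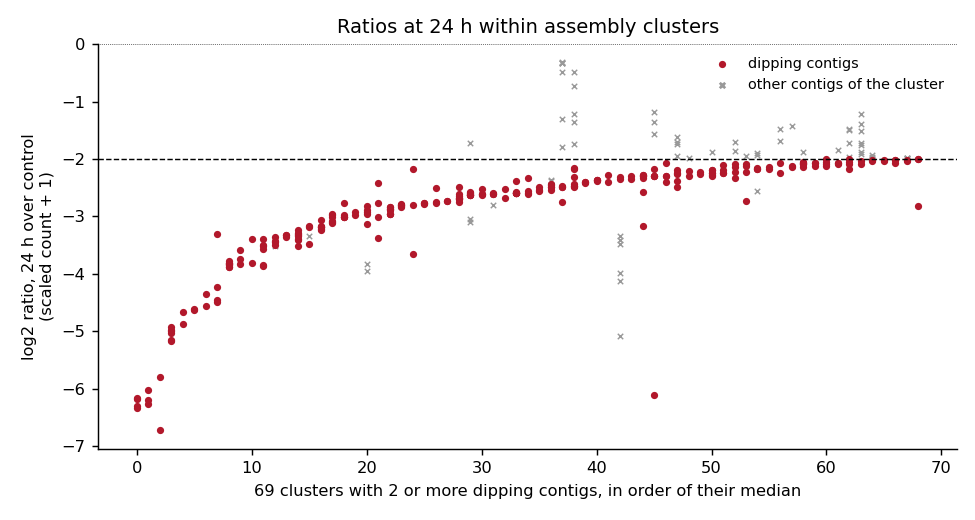
Log2 ratio of 24 h over the control for each contig of the 69 clusters with 2 or more dipping contigs, in order of the cluster median; filled points are dipping contigs, crosses the other contigs of the cluster with the control minimum, and the dashed line the limit of 0.25. In 61 of the 69 clusters the filled points span at most 0.5 on the log2 scale.

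The 206 other contigs of the 116 clusters were not chosen by the rule, although they may share reads with those that were. Of the 169 that met the control minimum, 167 (98.8%) were below the control at 24 h, against 55.3% of all 33347 contigs. The median ratio of the 169 to the control stood at 0.274 in the 24 h library, 0.764 in the 36 h library and 0.774 in the 72 h library. At or under 0.25 at 24 h were 54 (32.0%, against the 8.26% of all contigs), which had missed the window later, and 86 were between 0.25 and 0.5. At both later times, 96 of the 169 were within 2-fold of the control. The matching share of all contigs was not computed, and nothing is read from this count. The same holds for contigs that rose while a partner dipped. Of the 176 other contigs with 100 scaled counts in any library, 5 were above the control at 24 h. Of the 206, 0 were at least 4-fold above it with 100 scaled counts at 24 h. The clearest rises by counting interval were c26171_g2_i5, with 77 reads at 24 h against 10 in the control (6.05-fold, 3.12 to 13.1), and c27704_g1_i4, with 612 against 190 (2.53-fold, 2.15 to 2.99).

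The 116 clusters were chosen through contigs at or under 0.25 at 24 h, so the rule largely sets their sums there. No share over all clusters was computed. Summed over all contigs, 102 of the 116 clusters (87.9%) were at or under 0.25 of the control at 24 h, 12 were between 0.25 and 0.5, and 2 were within 2-fold. Both exceptions, named after their values were seen, held 1 dipping contig each. In c27123_g2, a cluster of 12 contigs, the sum stood at 0.581 of the control at 24 h. There c27123_g2_i9 had 203 reads at 24 h against 1166 in the control, a ratio of 0.137, and the other 11 contigs had ratios of 0.516 to 0.715. In c27990_g3 the sum stood at 0.576, and its dipping contig c27990_g3_i7 had 903 reads at 24 h against 2963 in the control, a ratio of 0.240.

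The dipping contigs were also set beside the other contigs low at 24 h. Of the 2756, 710 (25.8%) were at or under 0.25 of the control at both later times as well, and 400 (14.5%) were between 0.25 and 0.5 at both. At 36 h, 1189 (43.1%) were still at or under 0.25, and at 72 h 1094 (39.7%). Contigs within the 2-fold window at 36 h but below 0.5 at 72 h numbered 274 between 0.25 and 0.5 and 95 at or under 0.25. In the window at 72 h but below 0.5 at 36 h were 133 and 194. Above the window, at more than 2-fold the control, were 12 contigs at 36 h and 93 at 72 h, and 40 of the 93 were at or under 0.25 at 36 h. The limits of the rule did not fall in a gap between values. Just inside the limit of 0.25 at 24 h the nearest ratio was 0.2497 and just outside it 0.2506. At the lower limit of the window the nearest ratios were 0.503 inside and 0.4995 outside at 36 h, and 0.501 inside and 0.49996 outside at 72 h. The control minimum fell between scaled counts of 100.6 inside and 99.5 outside.

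**Figure D4:**
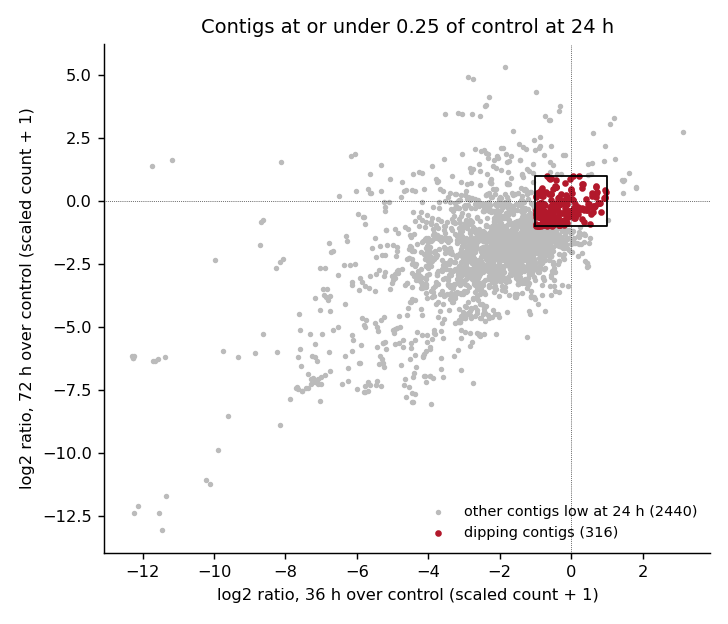
Log2 ratios to the control at 36 h (horizontal axis) and at 72 h (vertical axis) of the 2756 contigs at or under 0.25 of the control at 24 h; the square is the 2-fold window, with the 316 dipping contigs inside it. Points lie outside the square on its lower side, where 710 contigs are at or under 0.25 at both times, and above it, where 93 contigs exceed 2 at 72 h.

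Counted by contig, the share of the low contigs that returned varied with their abundance in the control. It was 5.54% (24 of 433) for scaled counts of 100 up to 200 and 6.93% (46 of 664) up to 500. It was 14.8% (73 of 494) from 500 to 1000, 14.1% (66 of 468) up to 2000, 16.6% (72 of 434) up to 5000 and 19.7% (30 of 152) from 5000 to 10000, and the 30 contigs of that last range lay in 9 clusters. Above 10000 it was 4.50% (5 of 111), and those 5 were of 1 cluster. In the ranges up to 5000 the dipping contigs lay, in the same order, in 23, 31, 38, 28 and 26 clusters. Contigs of a cluster may share reads, and more of them per cluster were counted in the higher ranges than in the lowest. No such share was computed per cluster, and the differences were not tested.

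The same rule with the dip placed at another time selected fewer contigs. A dip at 36 h with 24 h and 72 h in the window was found for 87 contigs in 47 clusters, of 2155 low at 36 h (6.46% of the 33347), which is 4.04% of the low contigs. A dip at 72 h was found for 108 contigs in 68 clusters, of 2112 low at 72 h (6.33%), which is 5.11%. For 24 h the share was 11.5%. With 1 contig per cluster, the one with most control reads, the dips numbered 88 of 1104 at 24 h (7.97%), 30 of 996 at 36 h (3.01%) and 54 of 947 at 72 h (5.70%). The number at 24 h was the highest of the 3 under each of the 4 scalings tried, at 303 to 365 contigs against 75 to 87 at 36 h and 105 to 131 at 72 h. With 1 library per time, these differences were not tested.

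The authors' deposited table of 24 h against the control gave 149 of the 316 contigs the status lower and 0 the status higher, where 4.20% of the 33347 contigs had the status lower. The 149 had a median ratio of 0.108 at 24 h and a median of 1484 control reads, against 0.205 and 728 for the 167 without that status. The authors' deposited table gave an adjusted p-value under 0.05 to 10 of the 316, in 5 clusters, with ratios of 0.00308 to 0.0155. All 10 were lower at 24 h, and 0.663% of the 33347 contigs met that threshold in that direction. The authors' deposited table gave 0.00553 for c14469_g1_i2, 0.00967 for c16778_g1_i1 and 0.00951 for c25394_g1_i3, and 0.0581 for c24674_g1_i1. For the other named dipping contigs the authors' adjusted p-value was 0.466 (c23652_g2_i1) or at least 0.966 (those of c23890_g1 and c25633_g1). In the authors' deposited table of 72 h against 24 h, 113 of the 316 had the status higher and 0 the status lower, where 2.52% of the 33347 were higher. The rule used these same libraries and selected contigs for a low count at 24 h. It therefore sets the direction in the tables of 24 h against the control and of 72 h against 24 h. It also raises the shares of the 316 in these tables, so the comparisons with the 33347 do not test the dip. The authors' deposited tables of 36 h and 72 h against the control gave none of the 316 a status of higher or lower, where 4.69% of the 33347 had one at 36 h and 3.42% at 72 h. The 2-fold window of the rule limits these counts, and nothing is read from them. These p-values rest on single libraries, and no spread between thalli was measured.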

How the data were processed

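RNA of 4 libraries of Ulva lactuca thalli was compared. The 5 tables each cover a pair of libraries. Read counts per contig were deposited by the authors without normalization. Beside them stand counts divided by a size factor, a signal on the scale of counts per the file headers, and the fold change between the libraries, deposited by the authors as a linear ratio. The p-value and adjusted p-value of each contig were deposited by the authors as well. Of tools, cutadapt, Bowtie2 and DESeq are listed, per the submitters' processing notes, without versions or settings. The treatment of reads matching several contigs was not given in the sources used here.

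Counts repeated between tables were identical in 6 of 6 columns. Each library was divided by its median-of-ratios size factor, from contigs read in all 4 libraries. It was 0.885 (control), 1.13 (24 h), 1.15 (36 h) and 0.890 (72 h). Intervals of ratios of 2 counts are exact Clopper-Pearson 95% intervals and cover counting error only. With 1 library per group no test was run. The calculation of the rule was run on simulated counts with planted dips and counting error only, which checks the calculation and not the pattern. Named contigs are, per pair of libraries, those whose interval bound nearest 1 is most extreme (at most 2 per direction), the 2 with most control reads, 2 of the cluster with most members, and 2 partners; others are said to be chosen later. The members and lists were chosen with earlier results of these data known. Alternatives were other scalings (library totals, upper quartile, edgeR 4.0.16 TMM, the authors' scaled values), pseudocounts, control minimums, limits, and cluster sums; 1 contig per cluster was added after seeing the data. Python 3.11.15, pandas 2.3.3, numpy 2.4.6 and scipy 1.17.1 were used.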

Additional observations from a re-analysis of the deposited data

How the results depend on the processing

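The number of dipping contigs was 303 to 365 under the other scalings (library totals, upper quartile, TMM, the authors' scaled values) and 307 to 317 with pseudocounts of 5 and 0.5, against 316. Of the 316, 270 (85.4%) were selected under every scaling. Their share of the contigs low at 24 h was 11.4% to 11.7% under these settings. The number followed the limits chosen: 481 contigs (9.12% of the low contigs) with a control minimum of 10 and 173 (14.8%) with 1000, 96 (7.46%) when at least 8-fold lower at 24 h and 1526 (22.0%) with a ratio below 0.5, and 96 (3.48%) with a window of 1.5-fold. By their construction these settings widen or narrow the rule. Summed per cluster, 100 clusters passed (8.69%), and with 1 contig per cluster, an alternative chosen after seeing the data, 88 passed (7.97%). Of 198 recalculated ratios of named contigs under other scalings and pseudocounts, 183 stayed within their counting interval, 15 left it and 0 changed direction. No paired analysis was possible because each group has 1 library. Depth limits the dips of contigs with few reads at 24 h, of which 52 had fewer than 50.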
